A study of Mus musculus with 9 samples.

Results

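The genes described here are 8 genes of cholesterol export and oxysterol sensing in mouse lung macrophages: the exporters Abca1 and Abcg1, the nuclear receptors Nr1h2 and Nr1h3, the ubiquitin ligase Mylip, the apolipoprotein Apoe, and the lysosomal cholesterol carriers Npc1 and Npc2. They were chosen by symbol, and each matched 1 of the 54281 genes in the deposited table. All 8 of 8 passed the filter on low counts, which left 15713 genes tested. Total RNA was sequenced from macrophages washed out of the lungs, with massage of the lung, of wild-type female mice aged 12 weeks. There were 3 mice after air, 3 killed 24 h after ozone and 3 killed 72 h after ozone, the exposure lasting 3 h at 0.8 ppm. Each group therefore holds n = 3 separate mice. The labels used here do not say when the air mice were killed. Levels are in CPM, the count of a gene scaled to the size of its library after TMM, with mean ± SD over mice. The size of a difference is a log2 fold change ± SE, taken from 1 edgeR quasi-likelihood fit of the 9 libraries. A gene is named as called where its Benjamini-Hochberg adjusted p over all genes tested was under 0.05.

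The liver X receptors, LXRβ encoded by Nr1h2 and LXRα by Nr1h3, are nuclear receptors that bind oxysterols and act on DNA as partners of the retinoid X receptors. Their best known targets move cholesterol out of the cell or limit its uptake. ABCA1 passes cholesterol and phospholipid to lipid-poor apolipoprotein A-I, ABCG1 passes cholesterol to formed high-density lipoprotein, and MYLIP is a ubiquitin ligase that limits lipoprotein uptake. NPC1 and NPC2 release cholesterol from the lysosome after lipoproteins and engulfed cells are digested. Alveolar macrophages take up surfactant lipid continuously, and loss of ABCG1 is known to fill them with lipid. The SREBP2 pathway of cholesterol synthesis is controlled in the opposite sense, since sterols repress it.

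The promoter of Abca1 is shown because Abca1 was the one gene of the 8 called in any comparison. Its start region holds an inexact match to the LXR element, of a kind that is common among promoters. The window is the RefSeq entry on GRCm38.p6, chr4:53159846-53160145, minus strand, from 250 bases before the start of transcription to 50 after it. The capitals mark the match.

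Abca1: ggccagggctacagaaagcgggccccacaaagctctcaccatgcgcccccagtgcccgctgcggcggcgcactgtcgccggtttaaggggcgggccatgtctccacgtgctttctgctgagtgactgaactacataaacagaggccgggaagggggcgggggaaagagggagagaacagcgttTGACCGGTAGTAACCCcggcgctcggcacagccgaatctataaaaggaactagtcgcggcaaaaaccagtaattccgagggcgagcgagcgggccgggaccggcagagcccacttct

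The element searched, on both strands, was the site AGGTCA written 2 times in the same direction with 4 free bases between, the direct repeat that the receptor pair is known to bind. No other motif was searched. Read on the strand opposite to the gene, the match is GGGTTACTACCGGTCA, at 67 to 52 bases before the start. Counted from 1 at the first base of the element, it differs from it by A1G, C5T and A11C. With up to 3 mismatches over the 12 fixed bases, 21.9% of the 32851 RefSeq promoter windows hold a match, so such a match is common. With up to 2 mismatches, the limit planned for the search, 3.02% do, and none of the windows of these genes does. The match shown was found only with the looser limit. Of the 8 genes, 6 had entries, with 9 windows in all: Abca1, Nr1h2, Nr1h3, Mylip, Apoe and Npc2. At up to 3 mismatches 1 of the 6 genes matched, Abca1. Abcg1 and Npc1 had no entry. A match or its absence in these windows says nothing about binding of the receptor.

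Library totals were 47095543 to 60248305 estimated counts. Summed resident alveolar macrophage markers (11 genes, with Chil3 the most abundant) were 31350 to 34220 CPM in air, 21330 to 30360 CPM at 24 h and 25370 to 29790 CPM at 72 h. In 24 h replicate 2 and 72 h replicate 1, markers of other cells stood above all the other 7 libraries. All 8 of 8 markers of serous cavity macrophages did so, summing to 579 and 758 CPM against 4.18 to 7.49 CPM. The same held for 8 of 8 interstitial macrophage markers (243 and 249.5 CPM against 10.9 to 19.1 CPM), 8 of 9 B cell markers (1547 and 968 against 157.5 to 200.2 CPM), 6 of 6 T cell markers (Cd8a the most abundant), 7 of 7 erythroid markers (Hbb-bs) and 4 of 4 monocyte markers (Ccr2). It held for 5 of 7 neutrophil, 4 of 7 endothelial and fibroblast, 2 of 7 dendritic cell and 0 of 11 lung epithelial markers. Erythroid markers summed to 2909 CPM in 24 h replicate 2 and 2510 CPM in 72 h replicate 1. They were also 855 CPM in 24 h replicate 1 and 143 CPM in 24 h replicate 3. In air they were 23.8 to 83.5 CPM, and in 72 h replicates 2 and 3 they were 75.7 and 12.2 CPM. The most abundant serous cavity and interstitial markers were Prg4 and C1qb. Of the serous cavity markers Gata6 and Selp, and of the B cell markers Pax5, were at 0 in at least 1 library; much of the B cell sum in the other 7 was Cd22, at 155 to 196 CPM. Values without these 2 libraries are given for the results of the 8 genes and for other genes that were called; leaving them out was decided with the data in view. Air replicate 2 had 2.42 CPM of Xist, the RNA of the inactive X chromosome in females, against 887 to 1482 CPM in the other 8, and the Y-linked Ddx3y and Eif2s3y were at 0 in all 9 libraries. It goes against its label in this respect, so values without it are also given where a result rests on it.

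Within the air libraries the 8 genes spanned a wide range of levels per length, in CPM per kb of the longest protein-coding transcript. Abcg1 stood highest at 447 ± 48.4 CPM per kb, above 99.2% of the tested genes with an annotated length. The lysosomal carriers followed, Npc2 at 135 ± 7.70 and Npc1 at 76.4 ± 7.13 CPM per kb, and these 3 did not overlap between libraries. The other 5 lay close together and overlapped with their neighbours: Apoe at 34.2 ± 7.65, Nr1h3 at 28.2 ± 1.67, Nr1h2 at 28.2 ± 3.62, Mylip at 26.9 ± 3.15 and Abca1 at 23.3 ± 4.82 CPM per kb. The level of Abcg1 was thus far above that of its fellow exporter Abca1. With merged exon lengths the first 3 kept their order (357, 82.1 and 35.3 CPM per kb), and the order of the lower 5 changed. Per kb, Nr1h2 was 0.832 to 1.46 times Nr1h3 over the 9 libraries, so their order changed between libraries.

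**Figure D1:**
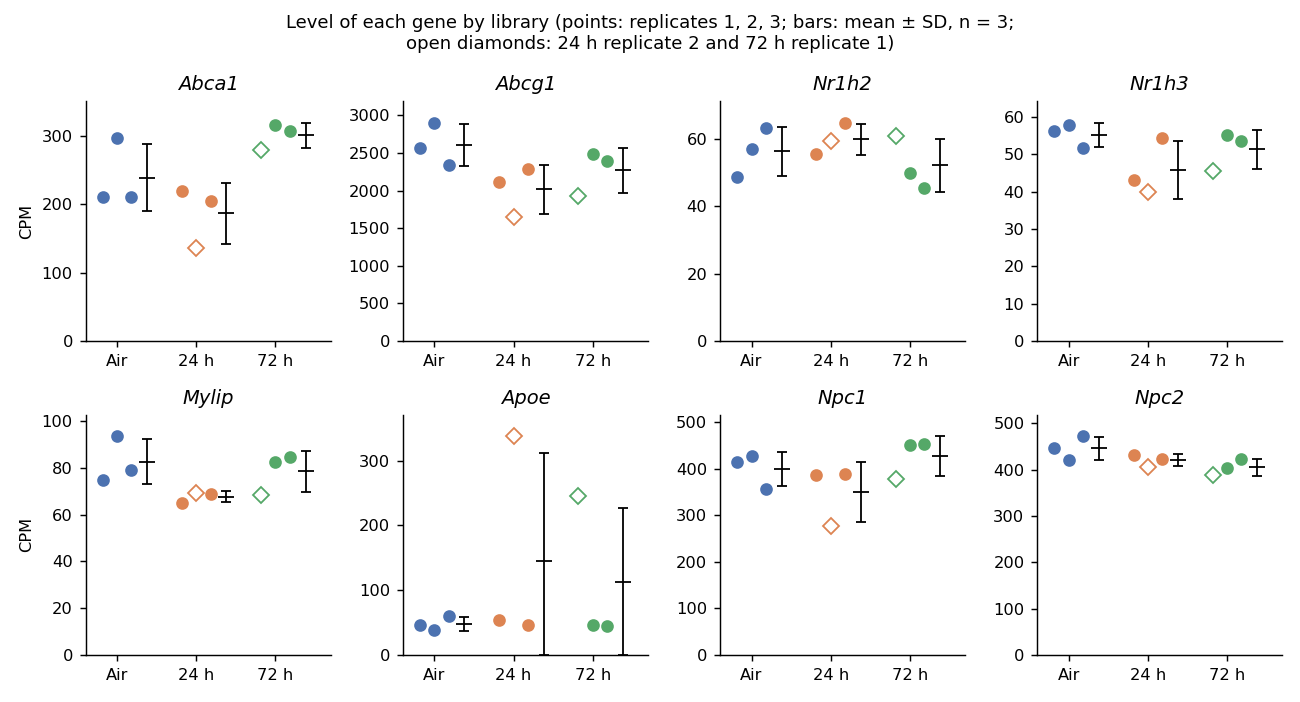
Level in CPM (vertical axes, from 0) of each of the 8 genes in each of the 9 libraries, by group, with mean ± SD (n = 3; bars of Apoe are cut at 0). Abca1 is higher in all 3 libraries at 72 h than in all 3 at 24 h, and Apoe is high in 24 h replicate 2 and 72 h replicate 1, at 337 and 244.5 CPM.

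Among the exporters, Abca1 (ENSMUSG00000015243.4, GRCm38 chromosome 4, 53030787 to 53159895, minus strand) was higher at 72 h than at 24 h. Its levels were 210.4, 296 and 210.1 CPM in the air mice, 219.6, 136 and 204 CPM at 24 h, and 279, 315 and 307 CPM at 72 h. All 3 libraries at 72 h lay above all 3 at 24 h, while air replicate 2 lay within the range at 72 h and the other 2 air libraries within that at 24 h. The mean was 239 ± 49.5 CPM in air, 187 ± 44.3 CPM at 24 h and 300.3 ± 18.7 CPM at 72 h. Between 24 h and 72 h it rose by 0.69 ± 0.19 on the log2 scale, a 1.61-fold difference with edgeR adjusted p = 0.0438. It was the 1 of the 8 genes called in this comparison, in which 18.2% of all genes tested were called, 5.39% higher and 12.8% lower (847 and 2008 genes, or 1163 and 1302 with upper-quartile scaling). At an unadjusted p under 0.05 there was also 1 of the 8, against 33.3% of all genes. Groups lay apart, with 72 h higher, for 1 of the 8 genes, against 15.0% of all genes.

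The call of Abca1 was a narrow one. It was lost when any 1 of the 9 libraries was left out, at edgeR adjusted p = 0.0511 to 0.162, and without the 2 libraries carrying other cell markers, at 0.0585. Without these 2 libraries 0 of the 8 genes were called at 24 h against air, at 72 h against air or between 24 h and 72 h, against 0.0444%, 7.12% and 15.1% of all genes. The log2 fold change stayed between 0.52 (without 24 h replicate 2) and 0.83 (without 24 h replicate 1) in these fits, and was 0.58 ± 0.17 without both libraries. Without air replicate 2 it was 0.68, adjusted p = 0.0511. DESeq2 gave adjusted p = 0.00275 and limma voom 0.0394. In the joint test of the 3 groups none of the 8 genes was called by edgeR, against 13.2% of all genes; Abca1 had adjusted p = 0.0971. An unadjusted p under 0.05 by edgeR was reached by 1 of the 8, Abca1, against 32.0% of all genes. DESeq2 called 1 of the 8 in this test and limma voom 0. The shares of all genes that these tools called in it were not counted, so these calls have no background beside them.

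Against air, Abca1 was not called at either time. The log2 fold change was -0.36 ± 0.19 at 24 h (adjusted p = 0.394) and 0.33 ± 0.19 at 72 h (adjusted p = 0.316). Without the 2 libraries these were -0.17 and 0.40, and without air replicate 2 they were -0.18 and 0.50. Other markers also lay higher at 72 h than at 24 h, in all 3 libraries against all 3. This held for 5 of 7 dendritic cell markers. All 7 dendritic cell markers together summed to 36.0 to 42.5 CPM in air, 33.6 to 70.1 CPM at 24 h and 78.15 to 87.3 CPM at 72 h. The same held for 4 of 11 lung epithelial markers (Sftpb, Krt8, Krt18 and Ager, named after their values were seen). Each of these 4 was at most 8.03 CPM in any library. All 11 epithelial markers together, with Krt19 the most abundant, summed to 687 to 853.5, 609 to 795 and 537 to 702 CPM in the same order of groups. A higher level at 72 h also held for 2 of 7 neutrophil markers, 1 of 9 B cell and 1 of 7 endothelial and fibroblast markers, and 1 of 11 resident macrophage markers. Over all genes tested 15.0% lay higher in this way. In the other direction, 2 of 11 resident macrophage markers (Marco and Fabp1) and 1 of 11 lung epithelial markers (Scgb1a1) lay lower at 72 h. These 3 were also named after their values were seen. The share of all genes that lay lower in this way is not given here, so these counts are not read as a result. The part of these cells in the difference of Abca1, or of the pathway genes below, was not tested.

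The comparisons with air share the air libraries, and each shares its ozone libraries with the comparison of 72 h with 24 h.

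Abcg1 (ENSMUSG00000024030.7, chromosome 17, 31057675 to 31117988, plus strand), the far more abundant exporter, was not called in any comparison. It was 2571, 2904 and 2343 CPM in the air mice, 2113, 1654 and 2283 CPM at 24 h, and 1924, 2489 and 2395 CPM at 72 h. All 3 libraries at 24 h lay below all 3 in air, and those at 72 h overlapped with both. Its log2 fold change at 24 h was -0.37 ± 0.15 (edgeR unadjusted p = 0.0383, adjusted p = 0.321), and -0.24 ± 0.09 without the 2 libraries, adjusted p = 0.303. Abcg1 stood lower in both of these libraries than in the other 7 and Apoe stood higher, so 2 of the 8 genes lay outside the other 7 in the same direction, as 20.6% of the tested genes did. The summed resident macrophage markers were lowest in the same 2 libraries; their part in this difference was not tested. In bulk RNA, fewer macrophages and less RNA per macrophage cannot be told apart. At 72 h the values were -0.20 ± 0.15 against air (adjusted p = 0.427) and 0.17 ± 0.15 against 24 h (adjusted p = 0.488), and without the 2 libraries -0.07 ± 0.09 and 0.17 ± 0.10 (adjusted p = 0.662 and 0.270). The ratio of Abca1 to Abcg1, in CPM, was 0.0819 to 0.102 in air, 0.0824 to 0.104 at 24 h and 0.127 to 0.145 at 72 h, so that the 3 libraries at 72 h stood above the other 6.

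At 24 h against air 0 of the 8 genes were called by edgeR, DESeq2 or limma voom, and 0.00636% of all genes were by edgeR. DESeq2 gave no adjusted p for Apoe in any comparison, so its counts of calls leave that gene out. By edgeR an unadjusted p under 0.05 was reached by 2 of the 8, Abcg1 and Mylip, as by 14.7% of all genes. The same 2 were the genes whose groups did not overlap, both lower at 24 h; 9.06% of all genes were. Nr1h2 and Apoe were the 2 of the 8 with a mean change above 0, and the median of the 8 was -0.23 against 0.01 over all genes tested. Without the 2 libraries the medians at 24 h were -0.12 for the 8 and -0.0046 for all genes. At 72 h against air 0 were called by the 3 tools, against 5.47% of all genes by edgeR (268 higher and 592 lower, or 192 and 107 with upper-quartile scaling), and 0 had an unadjusted p under 0.05, against 25.3% of all genes. The groups overlapped for all 8, while 39.5% of all genes did not overlap, and the median was -0.09 against -0.01 (-0.03 against 0.0012 without the 2 libraries). At 72 h against 24 h the median of the 8 was 0.17 against -0.03 over all genes, and 0.17 against 0.02 without the 2 libraries.

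**Figure D2:**
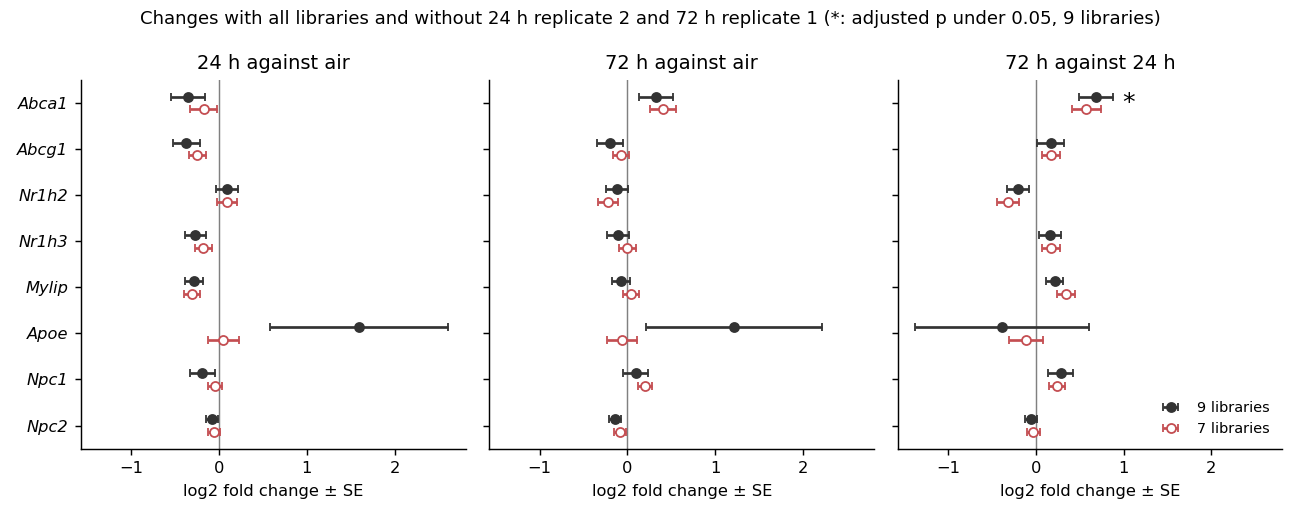
Log2 fold change ± SE (horizontal axes) of each of the 8 genes in the 3 comparisons, with all 9 libraries (filled) and without 24 h replicate 2 and 72 h replicate 1 (open, 7 libraries); the star marks the adjusted p under 0.05 of Abca1. The 2 libraries shift Apoe most, from 1.59 to 0.05 at 24 h.

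Neither receptor gene was called in any comparison. Nr1h3 (ENSMUSG00000002108.10, chromosome 2, 91184061 to 91202834, minus strand), the LXR gene that is prominent in macrophages and liver, was 56.2, 57.8 and 51.5 CPM in the air mice, 43.2, 39.8 and 54.45 CPM at 24 h, and 45.4, 55.02 and 53.45 CPM at 72 h. Replicate 3 at 24 h lay among the air values, so the groups overlapped. The log2 fold change at 24 h was -0.27 ± 0.12 (adjusted p = 0.345), and at 72 h -0.11 ± 0.12 against air (adjusted p = 0.609) and 0.16 ± 0.12 against 24 h (adjusted p = 0.399). Without the 2 libraries these were -0.18 ± 0.10, -0.0019 ± 0.10 and 0.17 ± 0.11 (adjusted p = 0.472, 0.993 and 0.2865). With 1 library left out the value at 24 h ranged from -0.42 to -0.18. Nr1h2 (ENSMUSG00000060601.13, chromosome 7, 44549616 to 44553951, minus strand), the broadly expressed LXR gene, was 48.8, 57.1 and 63.2 CPM in the air mice, 55.6, 59.3 and 64.8 CPM at 24 h, and 60.8, 49.96 and 45.5 CPM at 72 h. These groups overlapped in every pairing. Its log2 fold change was 0.09 ± 0.13 at 24 h against air, -0.11 ± 0.13 at 72 h against air and -0.20 ± 0.13 at 72 h against 24 h, with adjusted p = 0.742, 0.597 and 0.311. Without the 2 libraries these were 0.10 ± 0.11, -0.22 ± 0.11 and -0.31 ± 0.13, with adjusted p = 0.753, 0.260 and 0.121.

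Mylip (ENSMUSG00000038175.10, chromosome 13, 45389742 to 45412022, plus strand), the LXR target that limits lipoprotein uptake, was lowest at 24 h. It was 75.0, 93.4 and 79.2 CPM in the air mice, 64.9, 69.3 and 68.8 CPM at 24 h, and 68.5, 82.3 and 84.65 CPM at 72 h. All 3 libraries at 24 h lay below all 3 in air, and replicate 1 at 72 h lay with those at 24 h. The log2 fold change at 24 h was -0.29 ± 0.10 (edgeR unadjusted p = 0.0208, adjusted p = 0.272), and -0.30 ± 0.09 without the 2 libraries (adjusted p = 0.205). Without air replicate 2, the highest library, it was -0.19, adjusted p = 0.617. From 24 h to 72 h it was 0.21 ± 0.10 (adjusted p = 0.179), and 0.34 ± 0.10 without the 2 libraries (adjusted p = 0.0513).

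Apoe (ENSMUSG00000002985.16, chromosome 7, 19696109 to 19699188, minus strand), the apolipoprotein that macrophages secrete as an acceptor of cholesterol, was high in the same 2 libraries that carried markers of other cells. It was 45.4, 39.1 and 60.1 CPM in the air mice, 54.0, 337 and 45.8 CPM at 24 h, and 244.5, 46.2 and 44.9 CPM at 72 h. Among the other 7 libraries it spanned 39.1 to 60.1 CPM, with a median of 45.8 CPM. It was the one gene of the 8 above all the other 7 in both libraries, as 12.6% of the tested genes were. The log2 fold changes against air were 1.59 ± 1.015 at 24 h and 1.21 ± 1.01 at 72 h (adjusted p = 0.455 and 0.478), and 0.05 ± 0.17 and -0.06 ± 0.17 without the 2 libraries (adjusted p = 0.927 and 0.860). In these 2 libraries the serous cavity genes Prg4, a lubricating proteoglycan, and Alox15, a lipoxygenase, were 317 and 402 CPM and 151 and 251 CPM, against at most 1.24 and 1.20 CPM in the other 7. The part of these cells in the Apoe values was not tested.

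**Figure D3:**
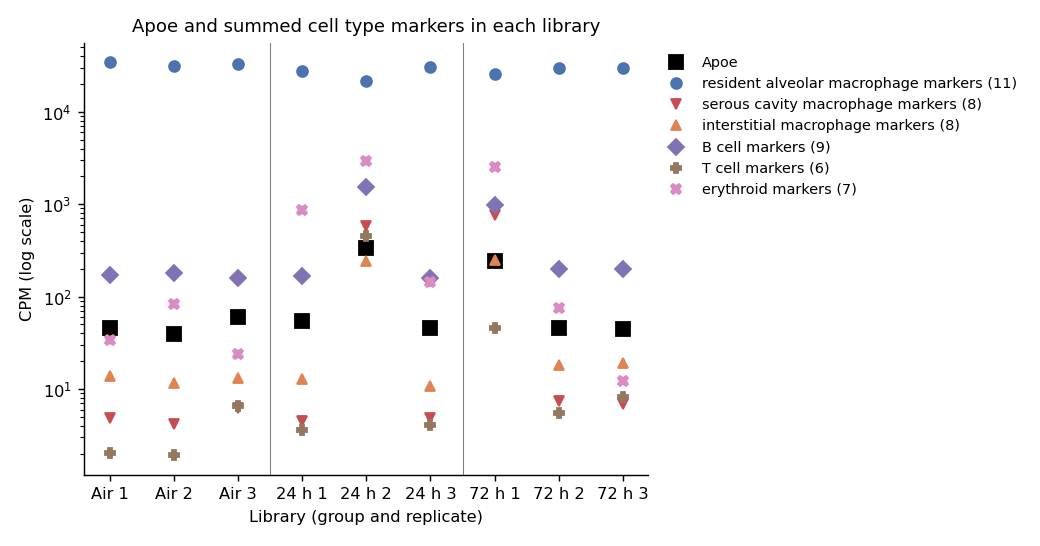
Apoe (black squares) and the summed markers of 6 cell types, in CPM on a log axis, in each of the 9 libraries. In 24 h replicate 2 and 72 h replicate 1 Apoe stands at 337 and 244.5 CPM together with serous cavity, interstitial macrophage, B cell, T cell and erythroid markers, while resident alveolar macrophage markers are at 21330 and 25370 CPM.

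Neither lysosomal carrier was called in any comparison. Npc1 (ENSMUSG00000024413.14, chromosome 18, 12189692 to 12236400, minus strand), the membrane protein that passes cholesterol out of the lysosome, was 414, 427 and 357 CPM in the air mice, 385.5, 276.5 and 389 CPM at 24 h, and 377, 449.9 and 452 CPM at 72 h. The lowest value was that of 24 h replicate 2, and the groups overlapped. The log2 fold change at 72 h against 24 h was 0.28 ± 0.14 (adjusted p = 0.205), and 0.24 ± 0.09 without the 2 libraries (adjusted p = 0.0958). Against air it was -0.19 ± 0.14 at 24 h and 0.09 ± 0.14 at 72 h (edgeR adjusted p = 0.511 and 0.705). Without the 2 libraries these were -0.04 ± 0.08 and 0.20 ± 0.08 (edgeR adjusted p = 0.850 and 0.157). Npc1 overlaps Rmc1 and the antisense gene Gm15956 on the opposite strand, and the labels do not say if reads were assigned by strand, so reads of these genes may not be told apart. Overlaps were also annotated for Abcg1, with the rRNA gene Gm25447 on the same strand. Nr1h3 overlaps Gm13783 on the same strand and Gm23390 on the opposite strand. Strand cannot separate reads of genes on the same strand. Npc2 (ENSMUSG00000021242.9, chromosome 12, 84754562 to 84773152, minus strand), the soluble partner that hands cholesterol to NPC1, was 446, 421 and 472 CPM in the air mice, 433, 407 and 424 CPM at 24 h, and 388, 404 and 424 CPM at 72 h. Its highest library was 1.22 times its lowest, the narrowest span of the 8 genes, and the widest was that of Apoe at 8.62 times. The log2 fold changes of Npc2 were -0.08 ± 0.07 at 24 h and -0.14 ± 0.07 at 72 h against air (adjusted p = 0.547 and 0.244), and -0.06 ± 0.07 and -0.09 ± 0.07 without the 2 libraries (adjusted p = 0.7455 and 0.440).

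The other genes of the pathway were examined through 5 lists. Of 19 genes of LXR partners, corepressors and other targets 16 were tested, and between 24 h and 72 h 1 rose, 2 fell and 13 were not called, and their median log2 fold change was 0.01. The 3 of 16 called stand beside the 18.2% called over all genes (5.39% higher and 12.8% lower), a share near that background. Fasn, the fatty acid synthase, was 102 ± 8.495 CPM in air, 162.5 ± 21.0 CPM at 24 h and 107 ± 18.02 CPM at 72 h, and fell by 0.60 ± 0.14 from 24 h to 72 h (adjusted p = 0.0202), and by 0.82 ± 0.09 without the 2 libraries (adjusted p = 0.00376). Scd2, a fatty acid desaturase, was 154 ± 20.7, 209 ± 12.4 and 151 ± 14.7 CPM, and fell by 0.46 ± 0.11 (adjusted p = 0.0226), and by 0.56 ± 0.11 without the 2 libraries (adjusted p = 0.0194). Both of these lipogenic targets are also driven by the SREBP factors. Ncor1, a corepressor that binds LXR without ligand, was 195 ± 23.1, 177 ± 10.6 and 225 ± 1.41 CPM, and rose by 0.35 ± 0.09 (adjusted p = 0.0309). With 1 library left out at a time, Fasn and Scd2 were called in 5 of 9 fits and Ncor1 in 2. Ncor1 was not called without the 2 libraries (0.33, adjusted p = 0.0602). In that fit 4 of the 16 were called, against 15.1% of all genes. Besides Fasn and Scd2 they were Rxra (-0.31, edgeR adjusted p = 0.0486) and Mertk (0.34, edgeR adjusted p = 0.0432), named after their values were seen. At 24 h and at 72 h against air 0 of the 16 were called by edgeR, with 4 and 2 at an unadjusted p under 0.05 (14.7% and 25.3% of all genes). DESeq2 called 4 and 1, of 608 and 1936 genes that it called in all, and limma voom 0 and 0. Without the 2 libraries edgeR called 1 and 0, against 0.0444% and 7.12% of all genes. The 1 was Fasn, higher at 24 h than in air (0.77 ± 0.08, edgeR adjusted p = 0.0241).

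Of 7 genes that form, remove or sense oxysterols, 5 were tested, and 0 were called between 24 h and 72 h by edgeR, DESeq2 or limma voom, with 1 at an unadjusted p under 0.05 and a median log2 fold change of -0.20. Over all genes 18.2% were called by edgeR, and 33.3% had an unadjusted p under 0.05. Without the 2 libraries edgeR called 2 of the 5, against 15.1% of all genes, both higher at 72 h and named after their values were seen. They were the sterol hydroxylase gene Cyp27a1 (0.82, adjusted p = 0.0145) and the oxysterol receptor gene Gpr183 (1.14, adjusted p = 0.0328). With all 9 libraries Cyp27a1 was at 0.58 (edgeR adjusted p = 0.146), and Gpr183 had the opposite sign, -0.20 (edgeR adjusted p = 0.935). Gpr183 was low in the libraries kept, at 0.721 and 0.970 CPM in 24 h replicates 1 and 3. In 72 h replicates 2 and 3 it was 1.77 and 1.92 CPM. Hsd3b7, an oxysterol dehydrogenase and the most abundant of this list, was 357.5 ± 31.4 CPM in air, 334 ± 56.35 CPM at 24 h and 296 ± 30.1 CPM at 72 h, with -0.17 ± 0.13 from 24 h to 72 h (adjusted p = 0.421). Ch25h, which makes an oxysterol ligand of LXR, was 26.9 ± 7.75, 34.8 ± 9.87 and 28.3 ± 8.41 CPM, with -0.30 ± 0.32 (adjusted p = 0.576), and -0.70 ± 0.32 without the 2 libraries (adjusted p = 0.188). Against air 0 were called at either time by edgeR, DESeq2 or limma voom, with 0 at an unadjusted p under 0.05 (14.7% of all genes at 24 h and 25.3% at 72 h).

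Of 15 genes of cholesterol transfer, storage and other export, all tested, 1 fell from 24 h to 72 h and 14 were not called, against 12.8% called lower and 5.39% called higher over all genes. Stard4, a cytosolic sterol carrier and a known SREBP2 target, was 50.3 ± 4.46 CPM in air, 68.6 ± 10.2 CPM at 24 h and 49.0 ± 3.96 CPM at 72 h. It fell by 0.49 ± 0.12 (adjusted p = 0.0249), by 0.61 ± 0.10 without the 2 libraries (adjusted p = 0.0130), and was called in 4 of 9 fits with 1 library left out. Without the 2 libraries 2 of the 15 were called, against 15.1% of all genes. The other was Scarb1, lower at 72 h (-0.27 ± 0.06, edgeR adjusted p = 0.0256) and named after its values were seen. With all 9 libraries Scarb1 was at -0.21 ± 0.10 (edgeR adjusted p = 0.156). The cholesteryl ester hydrolases Lipa, of the lysosome, and Nceh1, of the endoplasmic reticulum, were the most abundant of this list. Lipa was 925 ± 64.1, 852 ± 207 and 962 ± 86.0 CPM, with 0.18 ± 0.16 from 24 h to 72 h (adjusted p = 0.504). Nceh1 was 910 ± 91.4, 718 ± 155 and 799.5 ± 89.2 CPM, with 0.15 ± 0.16 (adjusted p = 0.570). Against air 0 of the 15 were called by edgeR at either time, with 1 and 3 at an unadjusted p under 0.05 (14.7% and 25.3% of all genes). DESeq2 called 1 and 1, of 608 and 1936 genes that it called in all, and limma voom 0 and 0.

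Of 6 lipoprotein receptors and uptake genes 5 were tested, and 0 were called by edgeR in any comparison. At 24 h, at 72 h and between them, 2, 1 and 0 had an unadjusted p under 0.05 (14.7%, 25.3% and 33.3% of all genes). In the same order 1, 1 and 0 were called by DESeq2, and 0, 1 and 0 by limma voom. Over all genes DESeq2 called 608 at 24 h and 1936 at 72 h against air, and limma voom 870 at 72 h. Lrp1, a large endocytic receptor that takes up apolipoprotein E, was 2437 ± 80.8 CPM in air, 2227 ± 616 CPM at 24 h and 2907 ± 44.2 CPM at 72 h. Cd36, a fatty acid and oxidised lipid receptor, was 479.8 ± 74.9, 328 ± 59.8 and 417.5 ± 50.7 CPM. From 24 h to 72 h their log2 fold changes were 0.38 ± 0.18 and 0.35 ± 0.16, adjusted p = 0.179 and 0.177, and 0.21 ± 0.07 and 0.31 ± 0.15 without the 2 libraries, adjusted p = 0.0836 and 0.186. All 3 libraries of Lrp1 at 72 h lay above all 3 in air and all 3 at 24 h. Against air its log2 fold change at 72 h was 0.25 ± 0.18 (edgeR adjusted p = 0.400), and it was called without the 2 libraries (0.29 ± 0.07, adjusted p = 0.0372) and without 24 h replicate 2 alone (0.27, adjusted p = 0.0442).

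**Figure D4:**
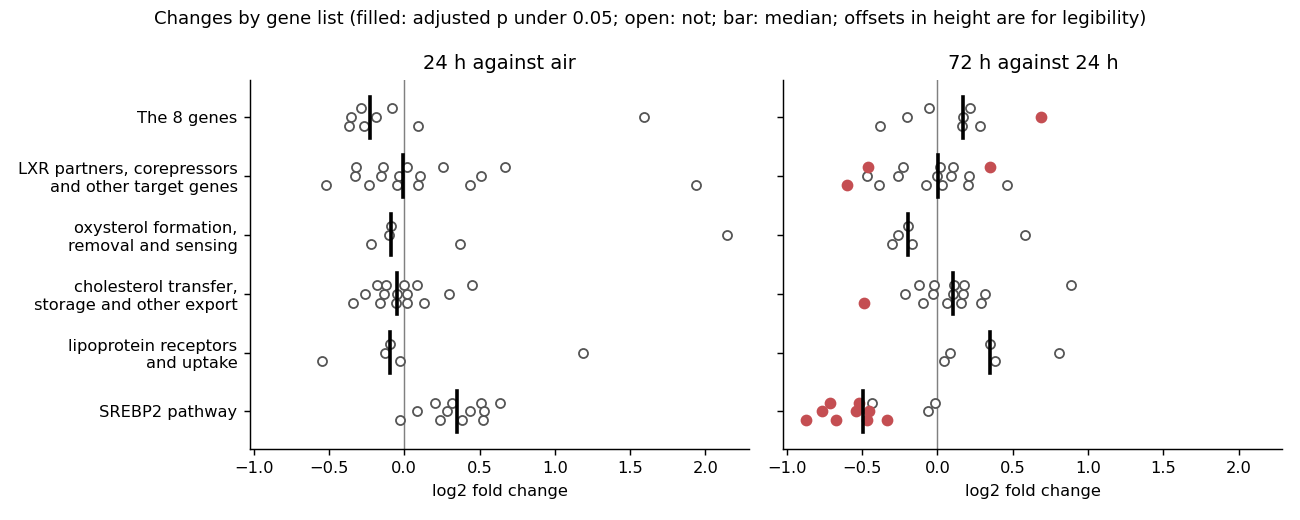
Log2 fold change (horizontal axes) of every tested gene of the 8 genes and the 5 pathway lists at 24 h against air and at 72 h against 24 h; filled points are called, bars are medians. The SREBP2 list has a median of 0.35 at 24 h against air and -0.49 at 72 h against 24 h.

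The SREBP2 pathway fell between 24 h and 72 h, and the cause of this fall was not tested. Of its 12 genes 9 fell, 0 rose and 3 were not called, against 12.8% of all genes called lower. The median log2 fold change was -0.49 against -0.03 over all genes tested. Idi1, the isopentenyl isomerase, was 82.2 ± 14.7 CPM in air, 127.5 ± 16.6 CPM at 24 h and 69.7 ± 7.96 CPM at 72 h, and fell by 0.87 ± 0.15 (adjusted p = 0.00950). Fdft1, the squalene synthase, was 46.15 ± 7.79, 62.6 ± 6.69 and 36.8 ± 3.86 CPM, and fell by 0.77 ± 0.14 (adjusted p = 0.0101). Srebf2, which encodes the transcription factor SREBP2 itself, was 139 ± 16.5, 173 ± 2.035 and 121 ± 15.0 CPM, and fell by 0.52 ± 0.11 (adjusted p = 0.0145). Dhcr7, the last reductase of one branch of the pathway, was 66.0 ± 2.21, 76.05 ± 5.39 and 60.2 ± 4.17 CPM, and fell by 0.34 ± 0.07 (adjusted p = 0.0161). Without the 2 libraries these 4 fell by 0.96, 0.86, 0.60 and 0.35 (adjusted p = 0.0235, 0.01995, 0.0118 and 0.0225).

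At 24 h against air 11 of the 12 lay above 0, as 8240 of all 15713 genes did, and their median log2 fold change was 0.35 against 0.01 over all genes. None was called by edgeR, with 8 at an unadjusted p under 0.05 (14.7% of all genes), 4 called by DESeq2, which called 608 genes in all, and 0 by limma voom. At 72 h against air 0 were called by the 3 tools, with 1 at an unadjusted p under 0.05 (25.3% of all genes). The 9 calls between 24 h and 72 h became 10 without the 2 libraries. Over all 3 comparisons the calls numbered 0 without 72 h replicate 2, 1 without 24 h replicate 1, 3 without 24 h replicate 3 or 72 h replicate 3, and 5 without air replicate 1 or 72 h replicate 1. Without air replicate 2 they numbered 8.

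Set side by side by library, as differences from the mean log2 level in air, the values of Abca1 and the SREBP2 list in the ozone libraries restate the calls above. They are given as a description of each library, and a link between Abca1 and the SREBP2 list was not tested. Abca1 was at -0.10, -0.79 and -0.21 in replicates 1, 2 and 3 at 24 h, and at 0.245, 0.42 and 0.38 at 72 h. The median of the 12 SREBP2 genes was at 0.46, 0.20 and 0.44 at 24 h, and at -0.11, -0.26 and -0.03 at 72 h. In air, where the values are centred on their own mean, they were at -0.16, 0.33 and -0.165 for Abca1 and at 0.03, -0.19 and 0.18 for the SREBP2 genes. Abcg1 stood below the air mean in all 6 ozone libraries, at -0.65 to -0.06. Its air libraries were at -0.01, 0.16 and -0.15, so 72 h replicates 2 and 3 (-0.06 and -0.12) lay among them. Air replicate 2, which goes against its label, was the highest air library for both Abca1 and Abcg1. The air mean was not taken again without it. For Abca1, 24 h replicate 1 lay above air replicates 1 and 3.

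**Figure D5:**
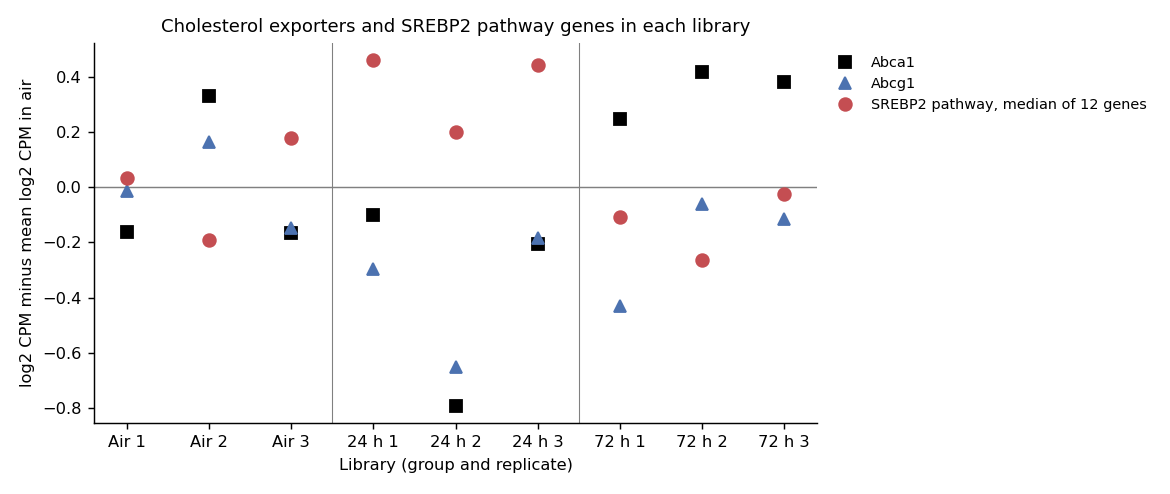
Difference from the mean log2 CPM of the 3 air libraries (vertical axis) of Abca1, Abcg1 and the median of 12 SREBP2 pathway genes in each of the 9 libraries. Abca1 is below 0 at 24 h and above 0 at 72 h, the SREBP2 median is above 0 at 24 h and below 0 at 72 h. The mean set to 0 includes air replicate 2, the highest air library for Abca1 and Abcg1.

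The genes whose log2 CPM followed each of the 8 most closely over the 9 libraries were found among tested genes of at least 5 CPM. The coefficients below describe these libraries and rest in part on the 2 that carry other cell markers. For Abca1 they were Pcyox1, which encodes a lipoprotein-bound oxidase (Pearson r = 0.975, and 0.959 over the other 7 libraries), Usp40 (0.962 and 0.965) and Sgsm2 (0.957 and 0.903). For Abcg1 they were the complement receptor C5ar1 (0.983 and 0.944), Tmcc1 (0.977 and 0.955) and the kinase subunit Prkar2b (0.977 and 0.967). For Apoe they were Ifitm3 (0.994 and 0.932), Arhgap4 (0.993 and 0.711) and Icam2 (0.993 and 0.687), the last a marker on the serous cavity list.

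Nr1h3 was followed most closely by the Notch ligand Jag1 (0.982 and 0.981), N4bp1 (0.975 and 0.946) and Dubr (0.971 and 0.937). Nr1h2 was followed by the kinase Csnk1g2 (0.964 and 0.982), Armc5 (0.959 and 0.958) and Fbxo46 (0.95 and 0.968). Mylip was followed by Gnpda2 (0.922 and 0.912), Tmem62 (0.912 and 0.894) and Mark3 (0.897 and 0.971). Npc1 was followed by Iqgap1 (0.992 and 0.982), Pik3cg (0.991 and 0.99) and Cdk14 (0.99 and 0.961), and Npc2 by Ddx23 (0.951 and 0.944), Smpdl3b (0.949 and 0.951) and Eif4b (0.944 and 0.92). Among the 8 themselves Abcg1 and Nr1h3 were closest over the 9 libraries (0.930, and 0.819 over the 7), and Abca1 and Npc1 over the 7 (0.853, and 0.885 over the 9). Abca1 and Abcg1 were at 0.635 and 0.498. None of the 24 genes named for likeness was one of the 8.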

How the data were processed

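RNA of lung macrophages from 9 mice in 3 groups was measured by total RNA sequencing with a stranded kit, per the labels' protocols. The authors deposited 1 table of estimated counts per gene with no scaling to library size, in which 80.5% of values are whole. The tools, per the submitters' processing notes, were Trimmomatic 0.39, FastQC, Salmon and DESeq2 on GRCm38.p6, with no options or annotation release stated in the labels. Symbols and coordinates are from GENCODE M21, which named 54107 of 54281 identifiers.

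Counts were rounded and analysed in R 4.3.3 with edgeR 4.0.16: filterByExpr (15713 genes kept), TMM, and 1 robust quasi-likelihood fit of all 9 libraries, with Benjamini-Hochberg adjustment over all genes. SE was obtained as the size of the log2 fold change over the root of its F statistic. The prior count of log2 CPM was 2. Alternatives were other scalings and filters, a replicate block, DESeq2 1.42.0, limma 3.58.1 voom, the 6 libraries compared, and each library left out. The fit was tested on simulated data, and libraries of a group differed beyond sampling noise (chi-square over its degrees of freedom 7.23 to 134).

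The 8 genes and all lists were chosen with earlier results of these data known. Some list genes are not reported here and are left out of the counts. All 8 are named; each list gives up to 4 called genes with the smallest joint p, or the 2 most abundant where fewer than 2 are called; each of the 8 genes gives the 3 tested genes of at least 5 CPM with the highest correlation; each marker list gives its most abundant gene. Alox15, Gata6, Selp, Pax5, Xist and the Y-linked genes were named after their values were seen.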

Additional observations from a re-analysis of the deposited data

Results flagged for a closer look

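For these genes the change against air differed between 24 h and 72 h, by edgeR's test of the difference itself, which is the comparison of 72 h with 24 h. Abca1 differed by 0.69 on the log2 scale and Ncor1 by 0.35, both higher at 72 h. Lower at 72 h were Fasn (-0.60), Scd2 (-0.46), Stard4 (-0.49), Idi1 (-0.87), Fdft1 (-0.77), Srebf2 (-0.52) and Dhcr7 (-0.34). Their adjusted p values stand with each gene above. Groups of 3 libraries are too small to look for single outlying samples by a formal rule, so the high Apoe values of 24 h replicate 2 and 72 h replicate 1 are described above and not listed here.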

How the results depend on the processing

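Of the 24 log2 fold changes of the 8 genes, 18 kept their direction and their side of the threshold under all 18 alternatives. Apoe had no adjusted p by DESeq2 and was counted there as not called. Abca1 at 72 h against 24 h kept its call in 5 of 18 (DESeq2 size factors, upper-quartile scaling, a filter of 1 CPM in 3 libraries, DESeq2 and limma voom). The number of the 8 genes called there was 0 with no filter, 0 with the replicate block, 0 with only the 6 libraries compared, 0 without the 2 libraries, and 0 to 0 with 1 library left out. In the joint test DESeq2 called 1, and the share of all genes that it called there was not counted. Signs turned for 5 of the 24 values, with no call on either side. Nr1h2 at 24 h ranged from -0.012 (without air replicate 1) to 0.173 with 1 library left out. Mylip at 72 h against air ranged from -0.149 to 0.016 (0.015 without air replicate 2, 0.016 without 72 h replicate 1) and was 0.039 without the 2 libraries. Apoe at 72 h against air ranged from -0.083 (without 72 h replicate 1) to 1.573 and was -0.059 without the 2 libraries, and at 72 h against 24 h it ranged from -1.677 (without 72 h replicate 1) to 1.177 (without 24 h replicate 2). Npc2 at 72 h against 24 h was 0.003 with upper-quartile scaling.

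Genes called in any comparison numbered, for LXR partners and other targets, 3, with 6 by DESeq2, 4 without the 2 libraries and 0 to 3 with 1 library left out. For oxysterol genes they numbered 0, with 2 without the 2 libraries and 0 to 1 with 1 left out. For cholesterol transfer and storage they numbered 1, with 2 under upper-quartile scaling, 2 with the 1 CPM filter, 3 by DESeq2, 0 with the 6 libraries compared, 2 without the 2 libraries and 0 to 2 with 1 left out. For lipoprotein receptors they numbered 0, with 2 by DESeq2, 1 by limma voom, 1 without the 2 libraries and 0 to 2 with 1 left out. For the SREBP2 pathway they numbered 9, and 0 to 10 with 1 left out. How many of all genes were called in any comparison was not counted for these settings, so these list counts have no background beside them. The totals over all genes by comparison, given next, also varied widely between settings. The cause of the changes in these lists was not tested.

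Over all genes the calls at 24 h were 1, against 608 by DESeq2, 7 without the 2 libraries and 0 with the replicate block; at 72 h against air 860, against 1936 by DESeq2, 299 with upper-quartile scaling and 35 with the block, and 7 to 1625 with 1 library left out; and at 72 h against 24 h 2855, against 1474 with the block and 340 without 72 h replicate 2. The replicate numbers were not found to pair the libraries: correlations of same-numbered libraries ran from -0.613 to 0.475. With the replicate block Abca1 at 72 h against 24 h was 0.685, adjusted p = 0.108. With 3 mice a group, an uncalled gene is not shown to be unchanged. Merged exon lengths in place of the longest transcript lowered the level of Npc1 from 76.4 to 35.3 CPM per kb, the largest change as a ratio among the 8.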

Other observations

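Some genes of the same pathways did not pass the filter on low counts. Cd5l, an LXR target that encodes a secreted inhibitor of macrophage death, was 56.4 CPM in 24 h replicate 2 and 58.8 CPM in 72 h replicate 1, against at most 0.102 CPM in the other 7 libraries. Apoc2, which lies in the same gene cluster as Apoe, was tested and was 3.32 and 2.03 CPM in these libraries and at most 0.532 CPM elsewhere. Gpr183, a receptor for oxysterols on lymphocytes and myeloid cells, was 13.2 and 9.30 CPM there and at most 1.92 CPM elsewhere, and the desaturase Scd1 was 124 and 138 CPM against at most 66.4 CPM. These genes were chosen after their values were seen. The intestinal and hepatic sterol exporters Abcg5 and Abcg8 were at most 0.0417 and 0.0796 CPM, and the oxysterol enzymes Cyp7b1 and Cyp46a1 at most 0.250 and 0.209 CPM, in any library.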
